A study of Mus musculus with 11 samples.

Results

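The type I interferon-stimulated genes described here are 49 genes chosen by symbol from a table of 52636 mouse genes, with earlier results of these data known. The RNA came from sorted splenic CD8 T cells of C57BL/6 mice. Group 1 holds 3 libraries of naive CD8 T cells (CD44lo). The others hold 4 libraries each of CD45RBhi and CD45RBlo memory CD8 T cells that bound the Kb NP396 tetramer, which picks out cells specific for 1 peptide of the nucleoprotein of lymphocytic choriomeningitis virus (LCMV). For memory cells the labels give intraperitoneal infection with 200000 pfu of LCMV Armstrong, a strain that is cleared, and a sort in week 6 (days 42 to 45) to more than 99% purity. The naive libraries carry the same protocol text and an entry of 6 to 8 weeks whose meaning is not stated, so it is not known here whether the naive mice were infected or how old they were. No transgene, knockout or drug is named for any group. CD45RB is the form of the phosphatase CD45 that keeps exon B, and its level divides the memory cells. The sources used here do not tie a replicate to an animal, so the p-values below measure spread between libraries, which may in part be technical.

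Type I interferons bind a receptor made of IFNAR1 and IFNAR2, and the kinases JAK1 and TYK2 then phosphorylate STAT proteins, among them STAT2. STAT2 and IRF9 are parts of ISGF3, a complex that binds the interferon-stimulated response element (ISRE) near the start of many antiviral genes. The products sense viral RNA, degrade it, block entry or budding, or restrain the pathway itself, and in resting T cells a low level of them is kept up by constant weak interferon signalling.

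Total counts ran from 18.02 to 23.15 M per library, so a count of 0 allows a level of up to 0.130 to 0.170 CPM, the unit of level used here, which is a count scaled to the library's size. That limit covers counting error only. The 8 CD8 T cell markers were above it in all groups, and Cd44 was at 12.1 to 17.8 CPM in naive against 176 to 328 CPM in memory libraries. Markers of other cells also differed between naive and memory libraries, and not all in the same direction. Summed erythroid markers (6, 5 and 6 of 6 above the limit in naive, CD45RBhi and CD45RBlo) were at 234 to 520 CPM in naive, 0.304 to 1.57 CPM in CD45RBhi and 0.242 to 24.98 CPM in CD45RBlo libraries. Summed B cell markers were at 1128 to 1279, 192 to 497 and 191 to 435 CPM in the same order, with 10, 9 and 6 of 10 above the limit. Most of that sum was Ighm, and Cd22 went the other way, with means of 1.88, 7.93 and 13.9 CPM. The 15 macrophage, monocyte and neutrophil markers summed to 44.4 to 69.5, 35.5 to 43.0 and 31.3 to 49.1 CPM, with 12, 11 and 11 above the limit and S100a9 at 0 throughout. Lyz2 was at 11.4 to 23.3 CPM in naive and at most 1.98 CPM in memory libraries. Cd68 and Itgam of the same list were higher in memory. Their means were 3.65 and 0.727 CPM in naive, 31.8 and 5.33 CPM in CD45RBhi, and 27.5 and 6.58 CPM in CD45RBlo. Siglech, which defines plasmacytoid dendritic cells, was at 0 in all memory libraries and at most 0.345 CPM in naive ones (4, 4 and 3 of 7 markers above the limit, sums of 97.7 to 102, 14.4 to 36.1 and 16.1 to 35.6 CPM, mainly Pacsin1). Conventional dendritic cell markers summed to 74.3 to 89.9, 90.5 to 267 and 75.8 to 176 CPM, with 6, 5 and 5 of 8 above the limit. In memory libraries that sum was mainly Itgax, and in naive libraries mainly Cd74. Xcr1, like Itgax, was higher in memory, with means of 1.12, 7.95 and 9.78 CPM in naive, CD45RBhi and CD45RBlo. Cd74 and H2-Aa went the other way, with means of 61.8 and 13.7 CPM in naive libraries. In CD45RBhi they were at 6.47 and 1.01 CPM, and in CD45RBlo at 5.35 and 0.927 CPM. The part of such cells in the values below was not tested, and in bulk RNA fewer cells that express a gene and less RNA per cell cannot be told apart.

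A promoter window (250 bases before to 50 after the annotated start) was found for 39 of the 49 genes in a RefSeq table on GRCm38.p6. The ISRE core, spelled GAAANNGAAA and searched on both strands, was in 20 of these 39 windows (51.3%), against 3.99% of all 27025 symbols and 3.44% of all 32851 windows in the table. The core of the gamma-activated sequence, TTCNNNGAA, reads the same on both strands and may overlap the ISRE core. It was in a window of 11 of the 39 genes (28.2%), against 9.55% of all symbols. Counted by window it was in 8.30% of all windows. Stretches around the ISRE core follow for 4 genes that were lower in both memory groups than in naive cells, for 3 that were higher, and for Stat2, so that the promoters of genes that moved opposite ways can be read side by side. Each is given 5′ to 3′ on the gene's strand, with the bases of the core matches in capitals.
Ifit1, chr19:34640765-34640833, plus strand, lower: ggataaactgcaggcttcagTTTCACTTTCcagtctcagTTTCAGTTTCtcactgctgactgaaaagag
Ifit3, chr19:34583353-34583436, plus strand, lower: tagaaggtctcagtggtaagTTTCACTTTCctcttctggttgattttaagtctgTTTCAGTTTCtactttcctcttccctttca
Isg15, chr4:156200855-156200916, minus strand, lower: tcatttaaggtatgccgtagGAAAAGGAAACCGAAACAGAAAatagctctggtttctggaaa
Igtp, chr11:58199502-58199551, plus strand, lower: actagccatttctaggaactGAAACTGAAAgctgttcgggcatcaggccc
Oas1a, chr5:120907510-120907565, minus strand, higher: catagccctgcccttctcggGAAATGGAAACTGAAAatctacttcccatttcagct
Gbp3, chr3:142559979-142560034, plus strand, higher: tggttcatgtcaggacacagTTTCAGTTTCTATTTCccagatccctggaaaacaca
Gbp7, chr3:142530263-142530312, plus strand, higher: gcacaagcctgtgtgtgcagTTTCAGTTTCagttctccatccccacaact
Stat2, chr10:128270256-128270305, plus strand, lower in CD45RBhi: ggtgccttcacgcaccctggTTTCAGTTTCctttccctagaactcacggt

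Genes of both directions held the core. Among genes with a window, 7 of the 11 lower in both memory groups had it. So did 4 of the 6 higher in both and 6 of the 17 called in neither. Ifit1, Ifit3, Oas1a and Gbp3 each had 2 matches and Isg15 had 3, in part overlapping. These are matches of letters in a window, not binding sites, and nothing follows about a gene without one.

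The mean levels of the members in naive libraries ran from 0.0316 CPM (Ifitm2) to 966 CPM (Sp100), with a median of 69.5 CPM, and the medians were 51.3 CPM in CD45RBhi and 59.1 CPM in CD45RBlo. Per kilobase of exon (RPKM, on the union of exons in GENCODE M21), the naive order was led by Ifi27l2a at 203 ± 51.0, Igtp at 180 ± 47.2 and Irf1 at 149 ± 20.2 (SD, n = 3), neighbours that differ by less than their spread. Sp100, a scaffold of nuclear bodies, led the order in both memory groups, at 173 ± 13.1 RPKM in CD45RBhi and 169 ± 15.7 in CD45RBlo (SD, n = 4). Next came Lgals3bp at 134 ± 5.55 and Irf1 at 120.0 ± 14.7 in CD45RBhi, and Irf1 at 128 ± 12.3 and Lgals3bp at 121 ± 4.32 in CD45RBlo, and in each group these 2 lay within their spread of each other. Of the 49, 47 had enough counts to be tested. The others, Ifitm1 and Ifitm2, had 41 and 3 counts over all 11 libraries.

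**Figure D1:**
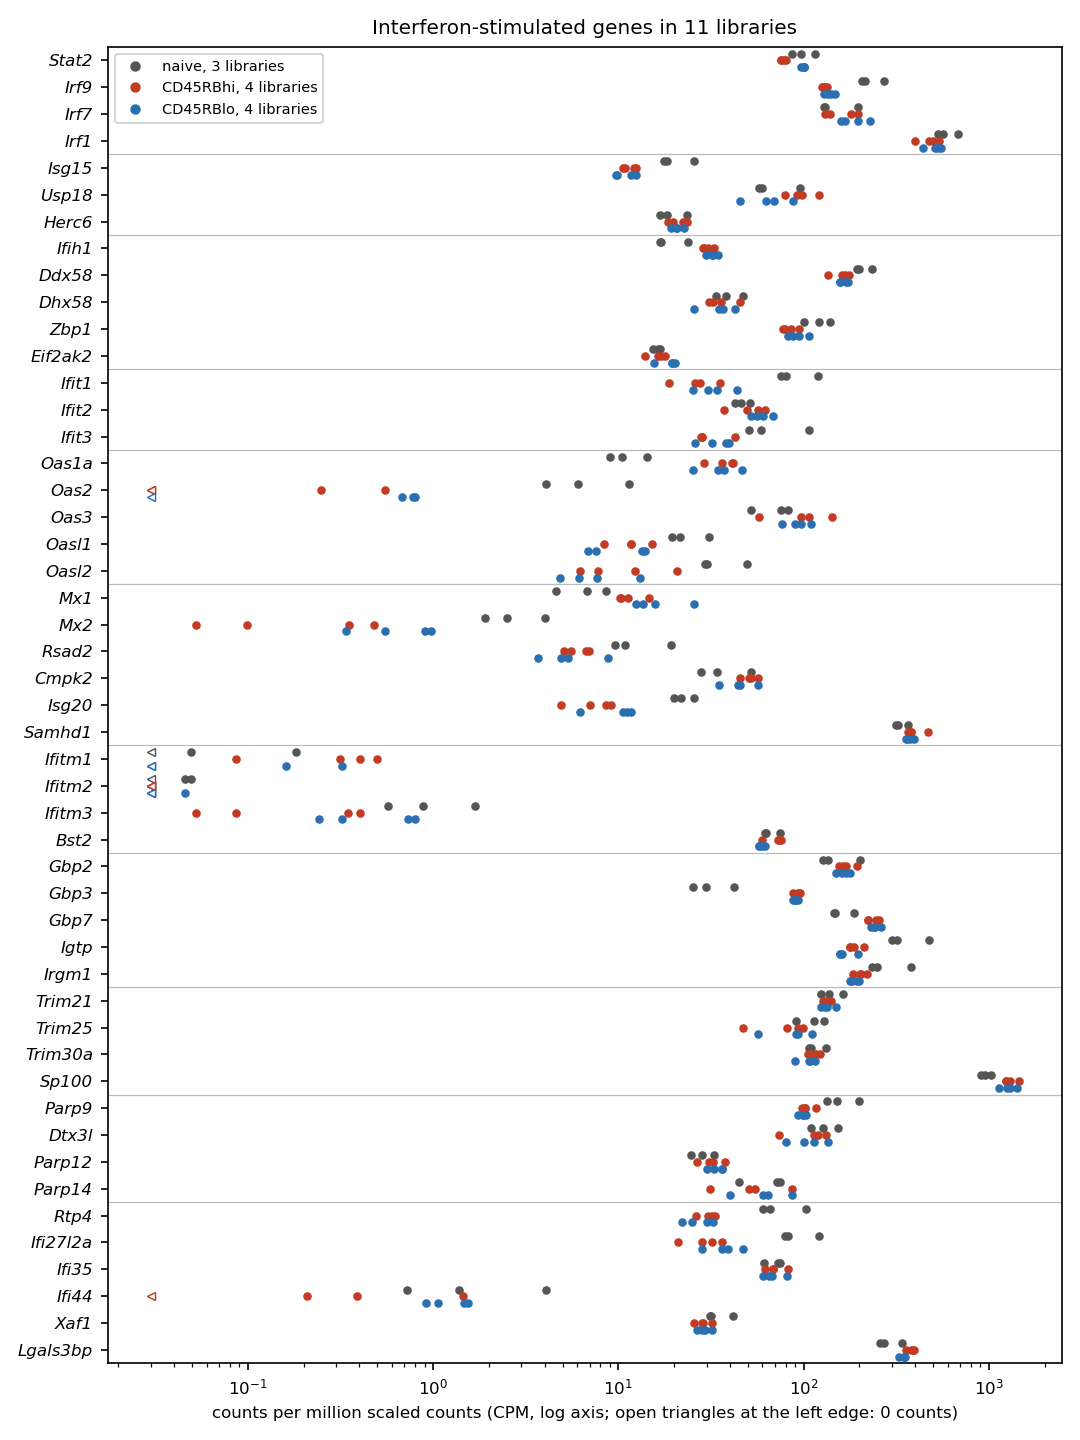
Levels of the 49 interferon-stimulated genes on a logarithmic CPM axis, 1 point per library in grey (naive), red (CD45RBhi) and blue (CD45RBlo), ordered by role with lines between the 11 role groups. Open triangles at the left edge mark libraries with 0 counts. Sp100 is highest, at 912 to 1449 CPM, Oas2 and Mx2 fall to 1 CPM or less in memory, and the red and blue points of most genes overlap.

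Naive replicate 1 stood apart from the other naive libraries in these genes. It was the highest of the 3 in 45 of 47 tested members (95.7%), against 31.9% of all 13735 genes tested and 61 of 83 other interferon-stimulated genes. The median deviation of the members from the naive mean was 0.28 log2 units in replicate 1, -0.13 in replicate 2 and -0.20 in replicate 3, while over all genes the same 3 medians lay between -0.01 and 0.01. Among memory libraries the members' medians ran from -0.09 to 0.07. Its erythroid sum was 520 CPM against 245 and 234 in the other naive libraries, its macrophage, monocyte and neutrophil sum 69.5 against 44.4 and 60.9, and its B cell sum 1279 against 1128 and 1243. Whether these go with the higher interferon genes was not tested. Each comparison with naive is therefore also given without that library.

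**Figure D2:**
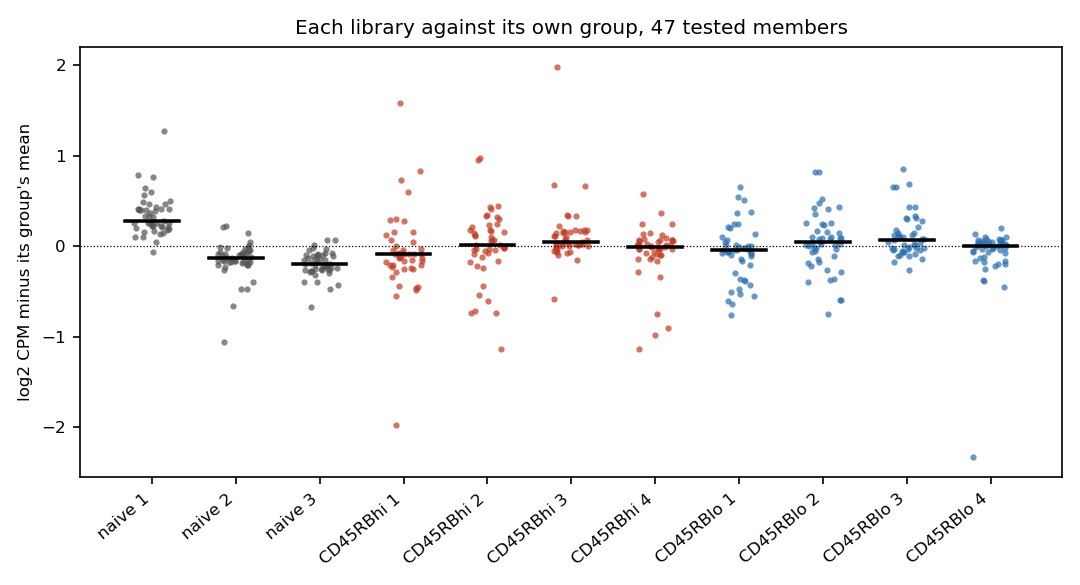
Deviation of each library from its own group's mean in log2 CPM, 1 point for each of the 47 tested interferon-stimulated genes, with the median as a black bar. The points of naive replicate 1 lie almost wholly above 0 with a median of 0.28, and the medians of the 8 memory libraries lie between -0.09 and 0.07.

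The first question is how far memory cells differ from naive cells in these genes at rest. More members were lower in memory than higher. In CD45RBhi memory 7 of 47 members rose and 20 fell, where 22.3% of all genes rose and 19.1% fell. In CD45RBlo memory 7 rose and 17 fell, where 22.4% rose and 19.8% fell. The median log2 change of the members was -0.26 in CD45RBhi and -0.18 in CD45RBlo, against -0.01 over all genes in both. The comparisons share their naive libraries. Both called the same 7 genes higher (Ifih1, Oas1a, Mx1, Gbp3, Gbp7, Sp100 and Lgals3bp) and the same 17 lower, and Stat2, Irf1 and Ifitm3 were called lower in CD45RBhi alone. Scaled by library size alone, which moves the median of all genes to -0.16 and -0.14, 6 rose and 23 fell in CD45RBhi and 6 rose and 21 fell in CD45RBlo. All genes then went from 3064 higher and 2630 lower to 2301 and 3724 in CD45RBhi, and from 3072 and 2722 to 2356 and 3609 in CD45RBlo.

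Without naive replicate 1 the balance was closer to even. In CD45RBhi 11 members rose and 14 fell (18.8% and 15.2% of all genes), with a median of -0.12, and in CD45RBlo 10 rose and 14 fell (18.9% and 15.9%), with a median of -0.05. In CD45RBhi the calls of Stat2, Irf1, Ddx58, Oasl1, Rsad2 and Ifitm3 were lost and those of Usp18, Cmpk2, Samhd1 and Gbp2 were gained, all higher. In CD45RBlo those of Ddx58, Zbp1 and Mx2 were lost and those of Irf7, Cmpk2 and Gbp2 were gained, again all higher. The 7 genes called higher kept that call in both groups, as did 14 of the 17 called lower in CD45RBlo.

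**Figure D3:**
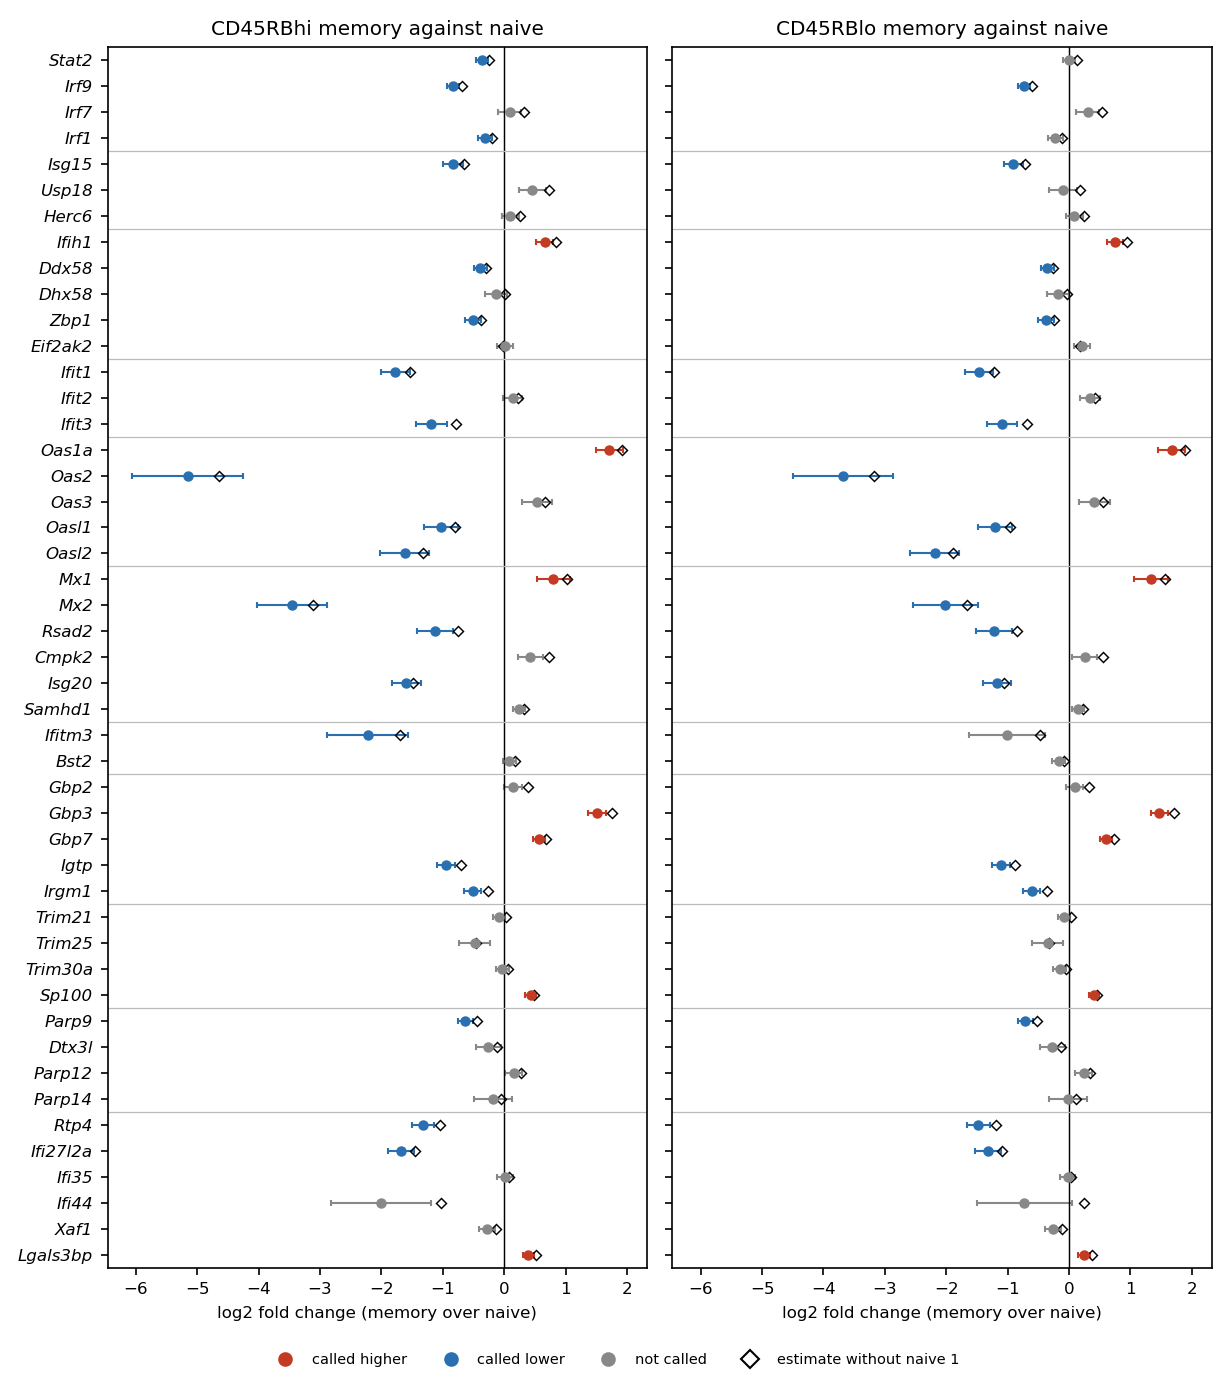
Log2 fold change of the 47 tested members in each memory group against naive, with the standard error, coloured by call (red higher, blue lower, grey not called). Open diamonds give the estimate without naive replicate 1. Oas2 lies farthest to the left in both panels and Oas1a and Gbp3 farthest to the right, and all diamonds except that of Eif2ak2 lie to the right of their points.

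The counts by role below cover few genes each. Over all genes 22.3% rose and 19.1% fell in CD45RBhi, and 22.4% and 19.8% in CD45RBlo. Whether a role group departs from these shares was not tested. Of the 4 signalling and transcription factors, Irf9 fell in both memory groups. Irf9 encodes the DNA-binding subunit of ISGF3 and was at 273, 206 and 214 CPM in the 3 naive libraries, at 126, 135, 131 and 127 CPM in CD45RBhi and at 129, 141, 148 and 135 CPM in CD45RBlo. No memory library reached the naive range. The fall was 0.83 ± 0.10 and 0.74 ± 0.10 log2 units (SE, adjusted p = 2.1e-05 and 5.19e-05), and it stayed called without naive replicate 1. Its partner Stat2 was at 115, 96.6 and 86.9 CPM in naive, at 75.5, 78.2, 80.2 and 75.8 CPM in CD45RBhi and at 97.0, 100.05, 101 and 100.5 CPM in CD45RBlo. CD45RBhi libraries thus lay below all naive ones (log2 change -0.36 ± 0.09, adjusted p = 0.0071, and 0.0515 without naive replicate 1), and CD45RBlo libraries lay inside the naive range (SE 0.09, adjusted p = 1).

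Irf1, a factor that interferon gamma also induces, was at 685, 566 and 532 CPM in naive, 398, 497, 536 and 478 CPM in CD45RBhi and 440.1, 512, 553 and 530.0 CPM in CD45RBlo. The ranges overlapped, and Irf1 was called lower in CD45RBhi (-0.32 ± 0.12, adjusted p = 0.0469) and not in CD45RBlo (-0.22 ± 0.12, adjusted p = 0.148). The CD45RBhi call was lost without naive replicate 1 (adjusted p = 0.238) or 2, without CD45RBhi replicate 1 or 4, with no filter on low counts, with the 2 groups alone and with the replicate block. Irf7, which amplifies interferon production, was at 196, 129 and 130.0 CPM in naive, 139, 197, 181 and 131 CPM in CD45RBhi and 167, 196, 229 and 159.8 CPM in CD45RBlo. Its libraries overlapped throughout and neither change passed (0.09 ± 0.19 and 0.31 ± 0.19, adjusted p = 0.72 and 0.211), although the CD45RBlo value did so without naive replicate 1 (0.54, adjusted p = 0.0415).

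In the ISG15 system, 1 of 3 genes fell and none rose. Isg15, a ubiquitin-like protein that is attached to others after interferon, was at 25.5, 17.7 and 18.3 CPM in naive, 10.8, 10.5, 12.4 and 12.2 CPM in CD45RBhi and 12.5, 9.88, 11.7 and 9.72 CPM in CD45RBlo. All memory libraries were below all naive ones, by 1.78-fold and 1.87-fold (adjusted p = 0.000931 and 0.000497). Usp18, which removes ISG15 and damps the receptor, was at 95.3, 57.5 and 60.0 CPM in naive, 79.4, 121, 92.3 and 97.8 CPM in CD45RBhi and 45.5, 87.4, 63.0 and 69.0 CPM in CD45RBlo. It overlapped between naive and memory (0.46 ± 0.23 and -0.10 ± 0.22, adjusted p = 0.122 and 0.758). Herc6, the mouse ligase for ISG15, did not pass either (0.10 ± 0.14 and 0.08 ± 0.14).

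Of the 5 nucleic acid sensors, 1 rose and 2 fell in each memory group. Ifih1 encodes MDA5, a sensor of long double-stranded RNA, and was at 23.8, 16.9 and 16.7 CPM in naive, 28.5, 29.1, 30.6 and 32.9 CPM in CD45RBhi and 32.3, 34.4, 29.9 and 32.1 CPM in CD45RBlo. Every memory library was above every naive one, with rises of 0.66 ± 0.13 and 0.75 ± 0.13 log2 units (adjusted p = 0.00155 and 0.000605). Zbp1, a sensor of Z-form nucleic acid, was at 139, 121 and 100.5 CPM in naive, 77.8, 79.6, 94.6 and 86.1 CPM in CD45RBhi and 87.7, 82.0, 107 and 94.0 CPM in CD45RBlo. CD45RBhi libraries lay below all naive ones and 1 CD45RBlo library lay inside the naive range (-0.51 ± 0.12 and -0.38 ± 0.12, adjusted p = 0.00523 and 0.0269, the second 0.158 without naive replicate 1). Ddx58, which encodes RIG-I, fell by 0.39 and 0.35 log2 units (adjusted p = 0.00764 and 0.013), calls that were lost without naive replicate 1 (0.0528 and 0.0836). The RIG-I regulator Dhx58 and the kinase Eif2ak2 did not pass (values from -0.18 to 0.21).

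Of the 3 IFIT genes, whose products bind foreign RNA, 2 fell and none rose. Ifit1 was at 119, 80.8 and 75.9 CPM in naive, 18.7, 35.5, 26.0 and 27.6 CPM in CD45RBhi and 25.3, 43.8, 30.5 and 34.0 CPM in CD45RBlo. The memory libraries lay below the naive ones, by 3.41-fold and 2.75-fold (log2 change -1.77 ± 0.23 and -1.46 ± 0.23, adjusted p = 4.84e-05 and 0.000206). Ifit3 fell by 1.18 and 1.09 log2 units (adjusted p = 0.00184 and 0.00305), and by 0.79 and 0.69 without naive replicate 1. It has the near-identical copy Ifit3b, so the division of reads between them is uncertain. Ifit2 did not fall: its values were 0.14 ± 0.16 and 0.35 ± 0.16 (adjusted p = 0.522 and 0.102), and all 4 CD45RBlo libraries lay above all 3 naive ones, at 51.74 to 68.5 CPM against 42.4 to 51.66 CPM.

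The OAS family, synthetases that activate RNase L and their relatives, held the widest changes in both directions: 1 of 5 rose and 3 fell in each group. Oas1a was at 14.3, 10.4 and 9.06 CPM in naive, 28.8, 41.0, 41.4 and 36.3 CPM in CD45RBhi and 25.4, 46.8, 34.7 and 37.0 CPM in CD45RBlo. Every memory library was above every naive one, by 3.27-fold and 3.19-fold (1.71 ± 0.22 and 1.67 ± 0.22, adjusted p = 4.88e-05 and 5.21e-05). Its copy Oas1g is near-identical, which makes the division of reads uncertain. Oas2 went the other way, at 251, 117 and 83 counts in naive, 11, 0, 5 and 0 in CD45RBhi and 12, 16, 15 and 0 in CD45RBlo libraries (7.21 ± 3.82, 0.200 ± 0.262 and 0.564 ± 0.380 CPM, SD, n = 3, 4 and 4). The log2 changes were -5.15 ± 0.91 and -3.68 ± 0.81 (adjusted p = 0.00057 and 0.00262), and Oas2 was thus almost off in memory libraries. Oasl1 and Oasl2 fell by 1.03 and 1.62 log2 units in CD45RBhi and by 1.20 and 2.19 in CD45RBlo, the first not called in CD45RBhi without naive replicate 1 (adjusted p = 0.0607). Oas3 did not pass (0.53 ± 0.25 and 0.42 ± 0.25, adjusted p = 0.107 and 0.206).

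Among the 6 other antiviral effectors 1 rose and 3 fell in each memory group. The dynamin-like GTPases Mx1 and Mx2 moved opposite ways. Mx1 was at 8.59, 4.62 and 6.75 CPM in naive, 11.2, 10.3, 14.7 and 10.3 CPM in CD45RBhi and 15.7, 12.5, 25.5 and 13.5 CPM in CD45RBlo. All memory libraries were above all naive ones (0.80 ± 0.27 and 1.33 ± 0.28, adjusted p = 0.0321 and 0.00172), the CD45RBhi call being lost with library size scaling or without naive replicate 2, naive replicate 3 or CD45RBhi replicate 3. Mx2, annotated as a polymorphic pseudogene, was at 88, 37 and 51 counts in naive, 7, 11, 2 and 1 in CD45RBhi and 6, 20, 17 and 12 in CD45RBlo libraries, a log2 change of -3.46 ± 0.57 and -2.01 ± 0.52 (adjusted p = 0.000363 and 0.00752, the second 0.0524 without naive replicate 1). Both genes are known to carry inactivating mutations in C57BL/6 mice.

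The neighbours Rsad2 and Cmpk2, which interferon usually induces together, differed in their calls, and the difference between the genes was not tested. Rsad2, which encodes viperin, fell by 1.12 and 1.22 log2 units (adjusted p = 0.0081 and 0.00496), the CD45RBhi call being lost without naive replicate 1 (adjusted p = 0.067). Cmpk2, a nucleotide kinase, was at 0.43 ± 0.20 and 0.25 ± 0.20 (adjusted p = 0.106 and 0.339), and it was called higher in both groups without that library (0.72 and 0.55, adjusted p = 0.00941 and 0.0345). The exonuclease Isg20 fell by 1.59 and 1.17 log2 units (adjusted p = 0.00016 and 0.00139). Samhd1, which hydrolyses nucleotides, did not pass (0.25 ± 0.10 and 0.15 ± 0.10, adjusted p = 0.0548 and 0.236, the first 0.0397 without naive replicate 1).

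Membrane restriction factors of the IFITM family were close to the limit of detection. Ifitm3, which blocks entry from endosomes, was at 37, 11 and 18 counts in naive, 8, 2, 7 and 1 in CD45RBhi and 13, 5, 15 and 7 in CD45RBlo libraries. CD45RBhi libraries lay below all naive ones (-2.22 ± 0.66, adjusted p = 0.0167, and 0.105 without naive replicate 1), and CD45RBlo libraries overlapped them (-1.01 ± 0.62, adjusted p = 0.212). Bst2, or tetherin, which holds budding virions, was at 57.2 to 75.5 CPM over all libraries, with all CD45RBlo libraries below all naive ones, and passed in neither group (0.09 ± 0.10 and -0.17 ± 0.10, adjusted p = 0.535 and 0.207).

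Of the 5 interferon-inducible GTPases among the members, 2 rose and 2 fell in each memory group. Those that rose, Gbp3 and Gbp7, are guanylate-binding proteins, which coat vacuoles of pathogens, and those that fell, Igtp and Irgm1, are immunity-related GTPases. Beyond the members, with genes chosen after their values were seen, the guanylate-binding proteins did not all rise. Gbp4, Gbp9, Gbp10 and Gbp11 fell in both groups (log2 changes of -0.85, -1.52, -3.30 and -5.08 in CD45RBhi), Gbp5 rose and Gbp8 was not called. Of other immunity-related GTPases, Irgm2, Iigp1, Tgtp1 and Tgtp2 were called lower in CD45RBhi (-1.01, -3.48, -2.90 and -1.12). Ifi47, of the same family, was not called (0.02 and -0.19). Gbp3 was at 42.3, 29.7 and 25.4 CPM in naive, 95.4, 93.3, 94.1 and 87.4 CPM in CD45RBhi and 89.5, 92.8, 88.1 and 89.9 CPM in CD45RBlo, a rise of 2.85-fold and 2.77-fold (1.51 ± 0.14 and 1.47 ± 0.14, adjusted p = 2.7e-06 and 3.17e-06). Those 8 memory libraries spanned 87.4 to 95.4 CPM, far narrower than their distance from naive. Gbp7 rose by 0.56 ± 0.10 and 0.61 ± 0.10 (adjusted p = 0.000546 and 0.00029), and Gbp2 did not pass (0.15 ± 0.14 and 0.09 ± 0.14), though it did in both groups without naive replicate 1 (0.39 and 0.33, adjusted p = 0.0178 and 0.0342). Igtp was at 474, 319.6 and 299.6 CPM in naive, 178, 213, 186 and 179 CPM in CD45RBhi and 158, 197, 157 and 162 CPM in CD45RBlo, with no overlap (-0.95 ± 0.15 and -1.11 ± 0.15, adjusted p = 0.000201 and 4.87e-05). Igtp shares 162 exonic bases with its neighbour Irgm2. Irgm1 fell by 0.51 and 0.61 log2 units (adjusted p = 0.0101 and 0.00323), about 0.26 and 0.36 without naive replicate 1.

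In the group of TRIM proteins and nuclear bodies, Sp100 rose and none fell. Sp100 was at 1034, 912 and 951 CPM in naive, 1235, 1449, 1242 and 1300 CPM in CD45RBhi and 1262, 1420, 1133 and 1307 CPM in CD45RBlo. No memory library reached down to the naive range, and the rise was 1.35-fold and 1.33-fold (adjusted p = 0.00163 and 0.00249). The ubiquitin ligases Trim21, Trim25 and Trim30a did not pass, with log2 values of -0.08, -0.48 and -0.03 in CD45RBhi and -0.08, -0.35 and -0.15 in CD45RBlo. Both memory libraries numbered 2 were low for Trim25, at 46.8 and 56.4 CPM against 81.3 to 111 CPM in the other 6.

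Of the 4 genes of ADP-ribosylation, Parp9 fell and none rose. Parp9 was at 199.6, 152 and 133 CPM in naive, 98.1, 102, 116 and 102 CPM in CD45RBhi and 99.7, 99.5, 93.2 and 103 CPM in CD45RBlo, all below the naive range (-0.63 ± 0.12 and -0.71 ± 0.12, adjusted p = 0.000995 and 0.00039). Its partner, the ubiquitin ligase Dtx3l, was at -0.26 ± 0.20 and -0.28 ± 0.20 (adjusted p = 0.344 and 0.304). These genes share 458 exonic bases on opposite strands, and whether the counting used strand is not given in the sources used here. Parp12 and Parp14, which attach single ADP-ribose units, did not pass (-0.18 to 0.24).

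Of the 6 remaining induced genes, Ifi27l2a and Rtp4 fell and Lgals3bp rose. Ifi27l2a, a small membrane protein, was at 121, 82.1 and 79.1 CPM in naive, 21.1, 28.2, 36.4 and 32.1 CPM in CD45RBhi and 28.3, 36.2, 46.8 and 39.1 CPM in CD45RBlo. The groups did not overlap, with a fall of 3.20-fold and 2.50-fold (adjusted p = 3.67e-05 and 0.000229), and the leader of the naive order per kilobase became rank 7 in CD45RBhi and rank 5 in CD45RBlo. Rtp4 fell by 1.32 and 1.48 log2 units (adjusted p = 9.13e-05 and 3.28e-05). Lgals3bp, a secreted glycoprotein, was at 340.0, 272 and 259.7 CPM in naive, 359, 380.4, 389.7 and 395 CPM in CD45RBhi and 348, 354, 348 and 326 CPM in CD45RBlo. CD45RBhi libraries lay above all naive ones and 1 CD45RBlo library did not (0.39 ± 0.09 and 0.24 ± 0.09, adjusted p = 0.00413 and 0.0475). The CD45RBlo call held only with DESeq2 and without naive replicate 1 (0.38) among the alternatives tried. Ifi35 and Xaf1 did not pass (-0.28 to 0.02), nor did Ifi44, whose naive libraries ran from 0.726 to 4.07 CPM (4.01-fold and 1.65-fold below naive, adjusted p = 0.0669 and 0.486).

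The second question is whether these genes divide CD45RBhi from CD45RBlo memory. With all 11 libraries in 1 model, none of the 47 tested members was called, where 0.0801% of all genes were higher and 0.0437% lower in CD45RBhi. At an unadjusted p under 0.05 edgeR gave 2 members higher and 3 lower, where 4.61% of all genes were higher and 4.39% lower. At an adjusted p under 0.05 DESeq2 called 1 member, Stat2, lower, where of 12921 genes 74 were called higher and 70 lower. The median difference of the members was -0.00 log2 units. Every CD45RBhi library lay above every CD45RBlo library for 1 member, Lgals3bp (2.68% of all genes), and below for 1, Stat2 (2.31% of all genes).

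Same-numbered memory libraries deviated together, so the numbers were also used as a block over the 8 memory libraries. That fit tested 45 members, with Mx2 and Ifitm3 falling under its count filter, and called 1 higher and 3 lower in CD45RBhi, where 2.52% of all genes were higher and 3.08% lower. For Stat2 (chr10:128270559-128292849) all 4 pairs had the lower value in CD45RBhi, with differences of -0.41 to -0.33 log2 units (blocked log2 difference -0.36 ± 0.06, adjusted p = 0.00617, and 0.205 without the block). Its groups did not overlap, at 77.4 ± 2.24 CPM in CD45RBhi and 99.6 ± 1.78 CPM in CD45RBlo (SD, n = 4 and 4). Usp18 (chr6:121245906-121270917) was higher in CD45RBhi in 4 of 4 pairs, by 0.47 to 0.80 log2 units in each, and its groups overlapped only across pairs (0.58 ± 0.07, adjusted p = 0.00096, and 0.445 without the block). Both calls held when any 1 pair was left out, with adjusted p of 0.00907 to 0.0433 for Stat2 and 0.000676 to 0.0167 for Usp18. Stat2, a signal transducer of the receptor, and Usp18, which restrains it, were the members called with every pair left out in turn.

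Mx1 (chr16:97447035-97462907) and Ifi27l2a (chr12:103442167-103443680) were lower in CD45RBhi in 4 of 4 pairs with overlapping groups. Their blocked differences were -0.49 ± 0.12 and -0.36 ± 0.08 log2 units (adjusted p = 0.0385 and 0.0251, and 0.554 and 0.633 without the block). Those calls did not hold with every pair left out in turn: they remained without pair 2 (0.0336 and 0.0459) and were lost without pair 1, 3 or 4 (0.0874 to 0.229 for Mx1, 0.0626 to 0.122 for Ifi27l2a). Leaving out pair 2 also called Irf7 lower, and leaving out pair 4 called Oasl2 higher. The number of calls over all genes changed as well. With all pairs 318 genes were called higher and 389 lower. Without pair 1, 2, 3 or 4, in that order, 344, 667, 167 and 300 genes were called in either direction. Ifit1 came close in the blocked fit (-0.31 ± 0.09, adjusted p = 0.0514). Over all tested members, 7 were higher in CD45RBhi in 4 of 4 pairs (Usp18, Samhd1, Bst2, Igtp, Irgm1, Rtp4 and Lgals3bp) and 12 were lower, among them Stat2, Irf9, Irf1, Zbp1, Eif2ak2, Ifit1, Ifit2 and Isg20. Of all genes tested, 13.8% were higher and 13.8% lower in every pair.

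**Figure D4:**
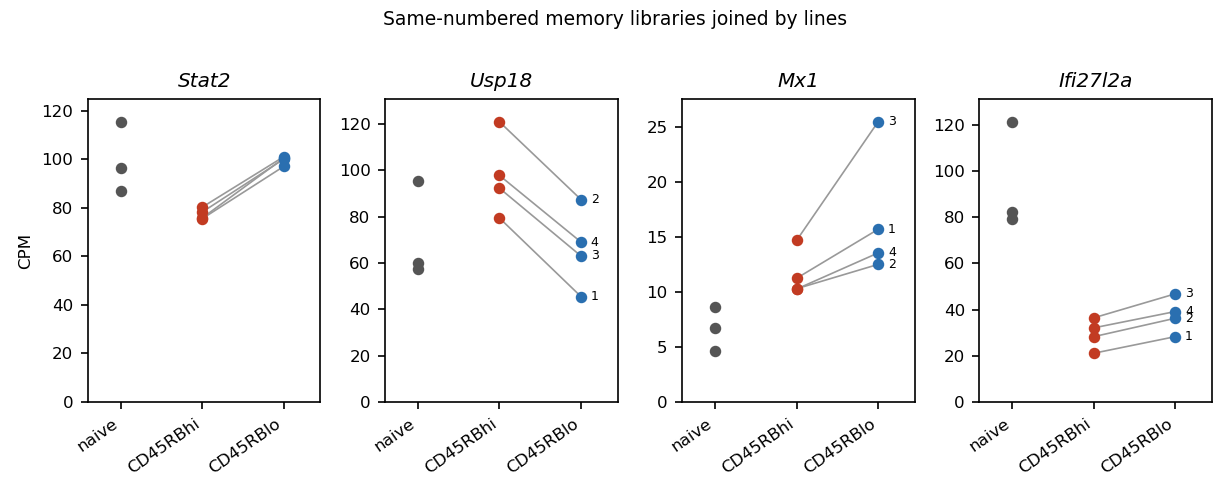
CPM of the 4 members called between the memory groups in the blocked fit, 1 point per library, with a line joining each pair of same-numbered memory libraries and the pair's number where points can be told apart. All lines of Stat2, Mx1 and Ifi27l2a go up from CD45RBhi to CD45RBlo and all lines of Usp18 go down. The CD45RBlo points of Stat2 lie at 97.0 to 101 CPM, within the naive range.

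Upstream of these genes lie the receptors and their relay. Of 18 tested genes of a list of receptors, kinases, STATs and regulators, 8 rose (44.4%) and 4 fell (22.2%) in CD45RBhi. In CD45RBlo 8 rose (44.4%) and 5 fell (27.8%). Over all genes 22.3% rose and 19.1% fell in CD45RBhi, and 22.4% and 19.8% in CD45RBlo. Without naive replicate 1, 9 rose and 3 fell in each group. The shares of all genes were then 18.8% and 15.2% in CD45RBhi, and 18.9% and 15.9% in CD45RBlo. Ifnar1, a chain of the type I receptor, was level at 218 ± 16.6, 211 ± 14.2 and 206 ± 22.2 CPM in naive, CD45RBhi and CD45RBlo (SD, n = 3, 4 and 4), with log2 changes of -0.05 ± 0.10 and -0.09 ± 0.10. Its partner Ifnar2 rose by 0.62 ± 0.09 and 0.50 ± 0.09 (adjusted p = 0.000149 and 0.000765). Of the interferon gamma receptor, the ligand-binding chain Ifngr1 rose by 1.13 and 0.90 log2 units, and the signalling chain Ifngr2 fell from 60.5 ± 0.293 CPM to 0.139 ± 0.104 and 0.137 ± 0.0627 CPM (adjusted p = 4.48e-10 and 4.08e-10). Il10rb and the factor Irf5 rose by 1.02 and 1.95 log2 units in CD45RBhi and 0.97 and 2.00 in CD45RBlo, and the feedback inhibitor Socs3 fell by 1.51 and 1.67.

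Of 13 tested sensors and adaptors outside the members, 3 rose (Unc93b1, Mavs and Tbk1) and 2 fell in each memory group (Ikbke and Tlr7). These shares, 23.1% and 15.4%, were near those of all genes, 22.3% and 19.1% in CD45RBhi and 22.4% and 19.8% in CD45RBlo. Unc93b1, which escorts endosomal Toll-like receptors, rose by 1.84 and 2.19 log2 units, and Tlr7, one of those receptors, fell from 9.92 ± 1.92 CPM to 0.423 ± 0.421 and 0.923 ± 0.929 CPM. Mavs, the adaptor of RIG-I and MDA5, rose by 0.32 and 0.39, the kinase Tbk1 rose by 0.28 and 0.44, and its relative Ikbke fell by 1.80 and 1.76. With library size scaling 1 of the 13 rose and 5 fell in CD45RBhi, and 3 rose and 3 fell in CD45RBlo. Interferon transcripts themselves were near absent. Of 20 genes for type I and III interferons in the table, 18 had 0 counts in all libraries and the highest total was 8 counts over 11 libraries. Ifng, the type II interferon, had 0 counts in the 3 naive libraries and was at 19.9 ± 1.81 CPM in CD45RBhi and 21.3 ± 2.49 CPM in CD45RBlo (SD, n = 4 and 4), at least 407-fold higher than naive against a floor of 3 counts over the naive group.

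A further list of interferon-stimulated genes was counted in the same way. Of 83 tested, 22 rose (26.5%) and 24 fell (28.9%) in CD45RBhi, where 22.3% of all genes rose and 19.1% fell. In CD45RBlo 20 rose (24.1%) and 25 fell (30.1%), where 22.4% and 19.8% did. The median log2 change was -0.02 in both. Without naive replicate 1 the counts of 84 were 22 and 20 in CD45RBhi (18.8% and 15.2% of all genes). In CD45RBlo they were 19 and 21 (18.9% and 15.9%). The 20 that rose in CD45RBlo became 12 without naive replicate 2 and 13 with library size scaling. The genes that rose over the whole table went from 3072 to 2585 and 2356 in the same order. Over both comparisons the smallest p among risers were those of Ly6c2, a surface marker of memory cells (2.58 and 2.31 log2 units), Phf11a (1.92 and 1.76) and Ifitm10 (2.51 and 2.60). Among those that fell they were those of the GTPases Tgtp1 (-2.90 and -3.50) and Gbp10 (-3.30 and -2.95) and the ligase Rnf213 (-1.20 and -1.28). Between the memory groups 3 of 83 (3.61%) were higher in CD45RBhi without a block and none lower, where 0.0801% of all genes were higher and 0.0437% lower. The surface protein Ly6e was at 1607 and 1137 CPM in CD45RBhi and CD45RBlo (0.50 ± 0.07, adjusted p = 0.0247), Ms4a4c at 161 and 99.7 CPM (0.69 ± 0.11, adjusted p = 0.041) and Plac8 at 29.0 and 17.8 CPM (0.71 ± 0.12, adjusted p = 0.041). With the block 13 of 81 were higher (16.0%) and 2 lower (2.47%), where 2.52% of all genes were higher and 3.08% lower.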

How the data were processed

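RNA was sequenced from 11 libraries of sorted mouse CD8 T cells. The deposited table holds counts, as unnormalized integers with 1 row for each Ensembl gene. SAMtools, featureCounts and DESeq2 were used with GRCm38 (mm10), per the submitters' processing notes. The aligner, the annotation release and strandedness: not given in the sources used here. Reads from near-identical copies and overlapping genes may be divided unevenly.

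Genes were kept with filterByExpr (minimum count 10), leaving 13735, and scaled by TMM. The groups were compared with edgeR 4.0.16 (R 4.3.3, limma 3.58.1), by its two-sided quasi-likelihood test, with Benjamini-Hochberg adjustment over all genes tested and a threshold of 0.05. One model held all 11 libraries (biological coefficient of variation 18.7%). CPM were taken on TMM-scaled totals, and deviations used log2 CPM with a prior count of 2. Scripts were tested on simulated data. Figures used matplotlib.

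Deviations from group means of same-numbered memory libraries correlated at 0.191 to 0.452 over genes, and of differently numbered ones at -0.331 to 0.0284. Over the tested members alone these ranges were 0.365 to 0.639 and -0.804 to 0.338. No label states this pairing, which rests on the data. For memory against naive the correlation of same-numbered libraries over genes was -0.101 to 0.0565, and these were treated as unpaired. The blocked fit tested 12637 genes (coefficient of variation 9.88%).

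The members, role groups and pathway lists were chosen with earlier results of these data known. Values in every library were given for members called between the memory groups, for the member with the largest change per role group and direction, and for 4 factors. From each pathway list up to 3 genes per direction were named by p, with those called between memory groups and Ifnar1, Ifnar2 and Ifng. Some items under this rule are not reported here. Alternatives were DESeq2 size factors, library size alone, DESeq2 1.42.0, no filter, 2 groups alone, the block and leaving out each library. List counts under alternatives and the leaving out of pairs were added after the data were seen. Positions and exon lengths came from GENCODE M21 and promoters from RefSeq (GRCm38.p6).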

Additional observations from a re-analysis of the deposited data

Results flagged for a closer look

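In 94 sets of 4 memory libraries (47 tested members in 2 groups), 5 had 1 library set apart from the other 3 by a gap above Dixon's critical value. Chance gives about 1 set in 20. Ifit3 was at 42.5 CPM in CD45RBhi replicate 2, where the other 3 lay at 28.1 to 28.5 CPM. Samhd1 was at 469 CPM in the same library, against 366 to 379 CPM. Bst2 was at 60.0 CPM in CD45RBhi replicate 1, against 72.9 to 75.5 CPM. Igtp was at 196.6 CPM in CD45RBlo replicate 2, against 157 to 162 CPM. Oas2 was at 0 CPM in CD45RBlo replicate 4, against 0.680 to 0.801 CPM, a difference of a few counts at this depth. The naive group has 3 libraries and was not checked in this way.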

How the results depend on the processing

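Of 1876 alternative values for single members, 1742 kept their direction and call, 73 changed sign while called in neither setting, 28 gained a call and 33 lost one. No called member reversed. Members called higher in CD45RBhi against naive numbered 7, and 6 to 11 when single libraries were left out, the 11 being without naive replicate 1. The same count over all genes was 3064, and 2547 to 3126 when single libraries were left out. It was 2635 without naive replicate 1. The other counts of members against naive stayed within 1.5 times of the main ones under each alternative tried. Between the memory groups no member was called in the unblocked fit or when single libraries were left out, DESeq2 called 1 lower, and the replicate block called 1 higher and 3 lower. Over all genes the block raised the calls from 11 higher and 6 lower to 318 and 389, and DESeq2 gave 74 and 70. The replicate block in all 11 libraries, where naive numbers do not pair, gave 7 higher and 20 lower members in CD45RBhi and 7 and 17 in CD45RBlo. Of all 13735 genes, that block gave 3024 higher and 2768 lower in CD45RBhi and 3007 and 2785 in CD45RBlo. Depth limits Ifitm1, Ifitm2, Ifitm3, Mx2, Oas2 and Ifi44, whose memory libraries hold at most 29 counts.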
